A study of Mus musculus with 8 samples.

Results

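The complement receptors and membrane regulators described here were 10 genes chosen by name, of 29968 genes in the table, and all 10 were among the 16610 genes tested. They were measured by RNA-Seq of KPC pancreatic tumors from 4 wild-type (WT) C57BL/6J mice and 4 complement C3-null (C3-/-) mice, all male and 12 weeks old. In both groups the pancreatic tail had received 250000 murine KPC FC1245 cells in 50 µL of PBS, and the endpoint was day 14. FC1245 is a cell line from the pancreatic tumor of a genetically engineered mouse, and the deletion of C3 was in the host and not in the injected cells. Each sample was RNA of a pancreatic tumor, in which transcripts of cancer cells and host cells are measured together.

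Complement is a cascade of plasma and tissue proteins in which cleavage of C3 and then of C5 releases the small peptides C3a and C5a and coats surfaces with C3 fragments. C3a and C5a, the anaphylatoxins, act on receptors of myeloid cells, and surface-bound C3 fragments are taken up through receptors on macrophages and dendritic cells. Membrane regulators on host cells break down the enzymes that cleave C3 or block the pore at the end of the cascade, and tumor cells often carry them. The comparison asked whether tumors grown without host C3 carried different levels of the transcripts that receive or restrain complement.

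No member passed the test between genotypes. In edgeR's quasi-likelihood test, 0 of 10 members had an adjusted p below 0.05, where 0 of all 16610 genes (0%) did. At an unadjusted p below 0.05, 1 of 10 members differed, against 848 of 16610 genes (5.11%). That member was Vsig4, a macrophage receptor for C3 fragments, at a mean of 5.77 CPM in WT tumors and 2.86 CPM in C3-/- tumors. CPM scales a gene's count by the TMM-adjusted library size of the tumor. The groups overlapped for all 10 members, whereas 619 of all genes tested (3.73%) had groups that did not overlap. Of the 10 log2 fold changes (C3-/- over WT), 8 were below 0 and the median was -0.10. Over all genes tested, 8306 were below 0, 8304 were above 0, and the median was -5.84e-05. DESeq2 called 16 of 20024 genes (0.0799%) and no member.

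**Figure D1:**
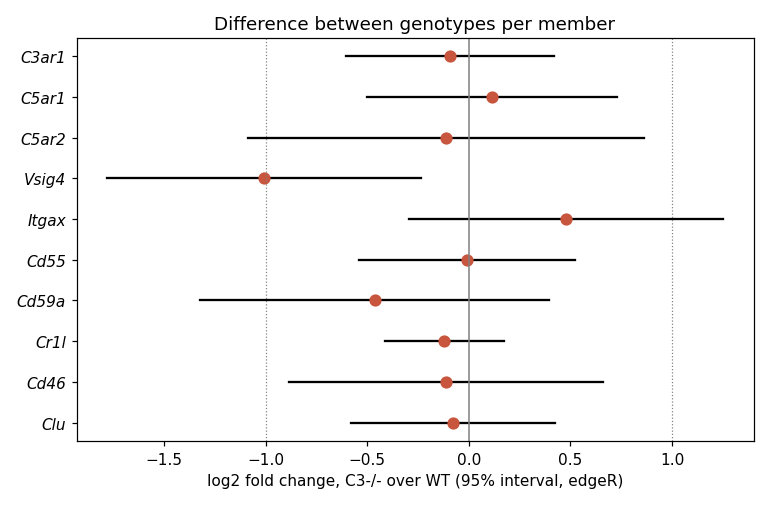
Log2 fold change of each member (C3-/- over WT, horizontal axis) from edgeR, with its 95% interval as a line, over 4 tumors per genotype. Dotted lines mark a 2-fold change in either direction. The interval of Vsig4 lies below 0, from -1.78 to -0.24, and the other 9 intervals cross 0.

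The precision differed between members. For 6 of the 10, C3ar1, C5ar1, Cd55, Cr1l, Cd46 and Clu, the 95% interval of the fold change lay within a 2-fold change in both directions. The narrowest was that of Cr1l, from -0.41 to 0.17 on the log2 scale. For C5ar2, Vsig4, Itgax and Cd59a, a change of 2-fold or more lay within the interval. Over all genes tested, the median size of the log2 fold change was 0.153 and the median biological coefficient of variation was 0.245.

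Total counts per tumor ranged from 13266029 to 23354212, over 22174 to 25343 genes with a count. C3, the gene deleted in the host, was at 296 ± 100 CPM in WT and 111 ± 15.7 CPM in C3-/- tumors (SD, n = 4 per genotype). This was a log2 fold change of -1.42 (SE 0.23). Its groups did not overlap. The adjusted p of C3 was 0.933 in edgeR, and C3 was the one complement gene called by DESeq2. Markers of other tissues differed between libraries. The summed level of 11 skeletal muscle markers was 1717 to 4413 CPM in WT 1, WT 4, C3-/- 1, C3-/- 3 and C3-/- 4, and 15.4 to 30.7 CPM in the other tumors. The summed level of 12 acinar markers was 204 to 587 CPM in WT tumors, 2063 CPM in C3-/- 1 and 41.9 to 68.3 CPM in the other C3-/- tumors, below every WT tumor. In WT 4, 8 hepatocyte markers summed to 89.1 CPM, against 11.5 to 27.5 CPM elsewhere. In WT 2, 6 islet markers summed to 75.1 CPM, against at most 1.87 CPM elsewhere. Their part in the levels of the members was not tested.

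C3ar1 encodes the receptor for C3a (chr6:122824097-122833120, minus strand, mm39), and C5ar1 encodes the signaling receptor for C5a (chr7:15980668-15993465, minus strand). C5ar2, the second C5a receptor, which does not couple to G proteins, lies 2588 bases away from C5ar1 on the same strand (chr7:15968510-15978079). Vsig4, also called CRIg, binds C3b and iC3b and marks resident macrophages (chrX:95290809-95337044, minus strand). The 250 bases upstream of the RefSeq start are shown for C3ar1 and C5ar1, the more abundant of the anaphylatoxin receptors, and for Vsig4, the member with the largest difference between genotypes. They are printed 5′ to 3′ on the gene's strand, from the RefSeq promoter table of GRCm38.p6. Each matched at 1 place in the region around its gene in GRCm39, the only region searched (C3ar1 chr6:122833117-122833366, C5ar1 chr7:15993264-15993513, Vsig4 chrX:95337045-95337294). Capitals mark matches to 2 short motifs.
C3ar1: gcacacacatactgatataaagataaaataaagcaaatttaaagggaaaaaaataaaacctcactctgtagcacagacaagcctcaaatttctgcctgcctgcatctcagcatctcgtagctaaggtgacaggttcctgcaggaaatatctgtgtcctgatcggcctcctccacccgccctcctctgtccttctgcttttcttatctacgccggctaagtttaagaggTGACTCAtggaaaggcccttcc
C5ar1: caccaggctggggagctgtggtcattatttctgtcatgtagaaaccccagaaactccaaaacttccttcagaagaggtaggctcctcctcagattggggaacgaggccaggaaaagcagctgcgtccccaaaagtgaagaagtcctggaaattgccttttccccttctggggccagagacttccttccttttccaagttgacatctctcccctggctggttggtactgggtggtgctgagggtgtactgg
Vsig4: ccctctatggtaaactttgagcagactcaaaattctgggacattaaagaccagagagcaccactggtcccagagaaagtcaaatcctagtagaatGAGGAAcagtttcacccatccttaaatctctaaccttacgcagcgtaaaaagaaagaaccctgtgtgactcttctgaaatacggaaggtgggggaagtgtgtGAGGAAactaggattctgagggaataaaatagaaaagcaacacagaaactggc

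The motifs searched on both strands were the purine box of the myeloid factor PU.1 (GAGGAA or TTCCTC) and the AP-1 site (TGANTCA), which do not overlap each other in these windows. Vsig4 held the purine box at 2 places, beginning 155 and 53 bases before the start, and C3ar1 held the AP-1 site 22 bases before it. C5ar1 held neither. The table had 10 promoters for 9 members, since C5ar2 had 2. Of the 10 promoters, 3 held the purine box (Vsig4, Cd59a and the second one of C5ar2, 1823 bases inside the annotated gene start) and 2 the AP-1 site (C3ar1 and Itgax). The purine box was in 23.25% of 32851 promoters of the same length and the AP-1 site in 6.75%. A match is a match of letters and not a measured binding site. Clu was not in the table.

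Among the anaphylatoxin receptors, C3ar1 was at 26.0, 29.9, 28.9 and 25.1 CPM in the WT tumors and at 24.4, 16.8, 22.7 and 39.0 CPM in the C3-/- tumors. The WT tumors lay close together. C3-/- 1, C3-/- 2 and C3-/- 3 lay below every WT tumor, with C3-/- 2 lowest, and C3-/- 4 lay above every WT tumor. The log2 fold change was -0.09 (SE 0.23, 95% interval -0.60 to 0.42, edgeR adjusted p 0.999), with an exact permutation p of 0.571.

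C5ar1 had the same tumors at its ends. It was at 17.9, 20.3, 19.8 and 22.8 CPM in WT tumors and at 25.9, 13.2, 14.9 and 33.4 CPM in C3-/- tumors. C3-/- 2 and C3-/- 3 were below every WT tumor, and C3-/- 1 and C3-/- 4 above every WT tumor. The log2 fold change was 0.11 (SE 0.28, 95% interval -0.50 to 0.73, edgeR adjusted p 0.999). Without C3-/- 4 it was -0.17, so that its sign rested on that tumor.

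C5ar2 was the lowest of the receptors, at 1.49, 2.34, 2.26 and 1.49 CPM in WT tumors and 0.842, 1.29, 1.45 and 3.39 CPM in C3-/- tumors. C3-/- 4 was again the highest, and the other C3-/- tumors were below every WT tumor. For C5ar2 the log2 fold change was -0.11 (SE 0.44, 95% interval -1.09 to 0.86, edgeR adjusted p 0.999). Per length, C5ar1 exceeded C5ar2 in all 8 tumors, with a ratio of FPKM of 12.02 to 42.6. The ratio was 42.6 in C3-/- 1 and 13.7 to 14.2 in the other C3-/- tumors, and its exact permutation p between genotypes was 0.714. The ratio of C5ar1 to C3ar1 stayed within 1.10 to 1.77 over the tumors.

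**Figure D2:**
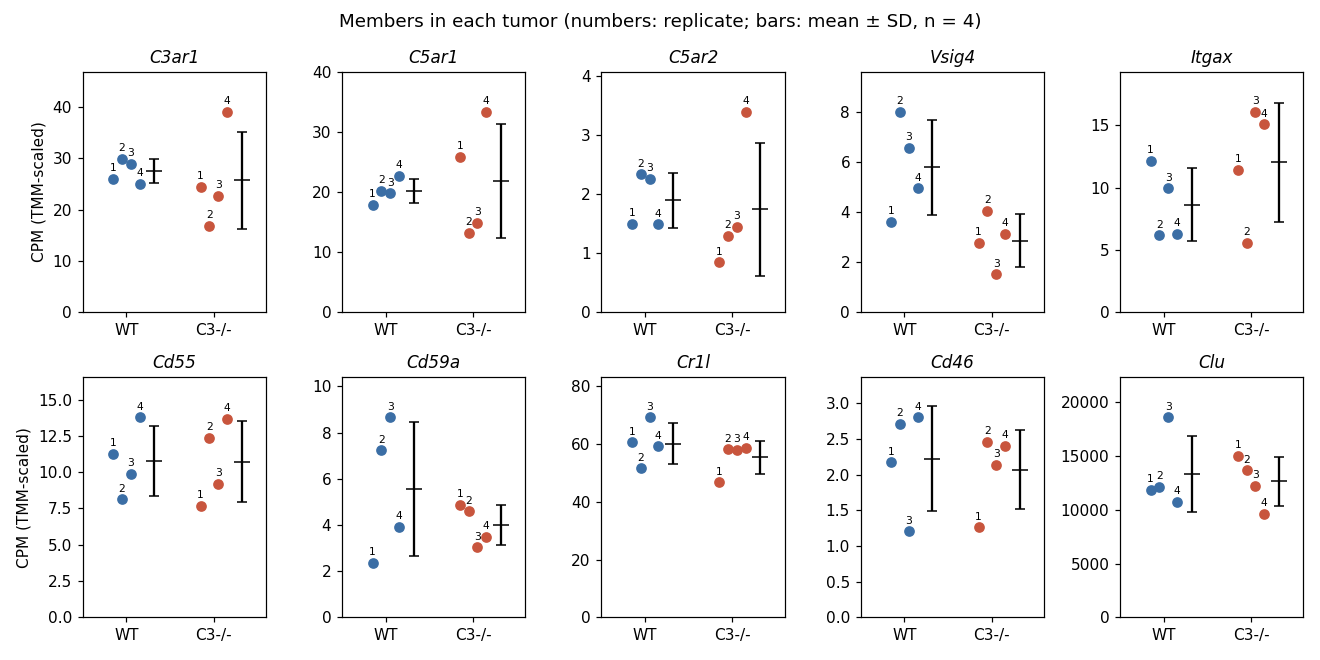
CPM (TMM-scaled, linear axis from 0) of the 10 members in each of 4 WT and 4 C3-/- tumors, numbered by replicate, with the mean and SD (n = 4) beside the points. WT and C3-/- points overlap in every panel, and for C3ar1, C5ar1 and C5ar2 C3-/- replicate 4 is the highest point.

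Vsig4 was at 3.61, 7.99, 6.55 and 4.94 CPM in WT tumors and at 2.76, 4.03, 1.51 and 3.12 CPM in C3-/- tumors. These rest on 58 to 116 counts per WT tumor and 24 to 72 per C3-/- tumor. C3-/- 2 lay above WT 1, and the other C3-/- tumors lay below every WT tumor. The log2 fold change was -1.01 (SE 0.35, 95% interval -1.78 to -0.24), a 2.01-fold higher fitted level in WT tumors. The unadjusted p was 0.0155 and the adjusted p 0.960 in edgeR, the DESeq2 adjusted p was 0.438, and the two-sided exact permutation p was 0.0571. The smallest p that 4 tumors against 4 allow is 0.0286. Fits without 1 tumor gave log2 fold changes between -1.22 and -0.81, below 0 in every case.

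Itgax encodes CD11c, a subunit of complement receptor 4 found on dendritic cells and on many macrophages (chr7:127728719-127749829, plus strand). It was at 12.1, 6.18, 9.94 and 6.30 CPM in WT tumors and at 11.4, 5.55, 16.1 and 15.1 CPM in C3-/- tumors. C3-/- 3 and C3-/- 4 were above every WT tumor, and C3-/- 2 was below every WT tumor. The log2 fold change was 0.48 (SE 0.35, 95% interval -0.29 to 1.25, edgeR adjusted p 0.999), with an exact permutation p of 0.314.

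Log2 CPM of Vsig4 and Itgax had Pearson's r -0.71 over the 8 tumors (exact permutation p 0.0483, adjusted 0.393 over 95 relations). Without the 2 tumors farthest from the median of Vsig4, r was -0.45. In C3-/- 3, Vsig4 was the lowest and Itgax the highest of all tumors. In WT 2, Vsig4 was the highest of all tumors and Itgax the lowest of the WT tumors. The ratio of their FPKM, Itgax over Vsig4, was 0.239 to 1.04 in WT tumors and 0.425 to 3.28 in C3-/- tumors (exact permutation p 0.0857).

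The 5 receptors are genes of myeloid cells, and bulk RNA cannot tell fewer cells of a type from less RNA per cell. The summed level of 10 macrophage markers was 919 to 1070 CPM in WT tumors and 709 to 1498 CPM in C3-/- tumors, 0 of the 10 were called, 4 had a log2 fold change above 0 and 6 below. Adgre1, which encodes F4/80, was at 22.7 ± 2.05 CPM in WT and 30.7 ± 11.8 CPM in C3-/- tumors, and Csf1r, the CSF-1 receptor, at 96.0 ± 14.8 and 115 ± 41.7 CPM (SD, n = 4 each). On the side of Vsig4, Marco was at 7.52 ± 4.17 and 4.05 ± 2.59 CPM (log2 fold change -0.88), Cd163 at 45.2 ± 17.2 and 34.3 ± 16.3 CPM (-0.40) and Mertk at 20.1 ± 4.06 and 16.5 ± 6.22 CPM (-0.28), each with overlapping groups. Ptprc, which encodes the leukocyte antigen CD45, was at 20.1 to 22.3 CPM in WT tumors and 23.3 to 44.0 CPM in C3-/- tumors, groups that did not overlap. Its edgeR unadjusted p was 0.0235, below the threshold only before adjustment. The summed level of 7 dendritic cell markers was 11.3 to 12.9 CPM in WT tumors and 9.41 to 24.3 CPM in C3-/- tumors. Of the 5 dendritic cell markers tested, 5 had a log2 fold change above 0, as Itgax did, with a median of 0.76. None was called, and 1 had an unadjusted p below 0.05 in edgeR, Flt3, a receptor of dendritic cells and their precursors (0.672 ± 0.0503 CPM in WT and 1.24 ± 0.450 CPM in C3-/- tumors, groups that did not overlap). Zbtb46, the largest part of the sum, was at 6.44 ± 0.937 and 6.66 ± 2.50 CPM (SD, n = 4 each). Markers of mesothelium, the lining of the abdominal cavity, and of hepatocytes lay in the direction of Vsig4. Of 8 hepatocyte markers 5 were tested, all with a log2 fold change below 0 (median -3.26), 0 were called, and 3 had an unadjusted p below 0.05 in edgeR. Ahsg, a plasma protein gene of the liver, had 13 to 172 counts in WT tumors and 2 to 9 counts in C3-/- tumors, groups that did not overlap. Without WT 4, the tumor with the highest hepatocyte markers, the log2 fold change of Vsig4 was -1.08. All 5 mesothelial markers had a log2 fold change below 0, with a median of -0.91, 0 were called and 3 had an unadjusted p below 0.05 in edgeR. Upk3b was at 3.99 ± 1.10 CPM in WT and 1.47 ± 0.618 CPM in C3-/- tumors, and Lrrn4 at 2.42 ± 0.993 and 0.975 ± 0.241 CPM, and the groups of both did not overlap. The sum of the 5, 486 to 572 CPM in WT and 366 to 549 CPM in C3-/- tumors, was nearly all Msln, at 509 ± 36.3 and 482 ± 89.1 CPM. Neutrophil markers, 7 in number, summed to 29.7 to 85.0 CPM in WT and 36.0 to 116 CPM in C3-/- tumors, and of the 6 tested 4 were above 0 and 2 below. Of these, Csf3r, at 10.9 ± 1.21 and 16.1 ± 4.02 CPM (SD, n = 4 each), had an unadjusted p of 0.0211 in edgeR. The sum of 9 T, NK and B cell markers was 1.02 to 3.79 and 1.34 to 6.79 CPM. The 2 of these tested were above 0, and Cd79a, at 0.533 ± 0.184 and 1.13 ± 0.434 CPM, had an unadjusted p of 0.0359 in edgeR. The part of these cell types in the levels of the receptors was not tested beyond the ratios given next.

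Each receptor was set against the mean log2 level of the macrophage markers in the same tumor. The difference between genotypes (C3-/- minus WT) of Vsig4 was then -0.89 on the log2 scale (two-sided exact permutation p 0.0857). That of C3ar1 was -0.04 (exact permutation p 0.886), that of C5ar1 0.13 (0.371), that of C5ar2 -0.14 (0.886) and that of Itgax 0.54 (0.257), or 0.20 without C3-/- 3. None passed a threshold of 0.05. The values depended on the marker set against. For C3ar1, the difference was -0.35 relative to Csf1r alone and -0.63 relative to Ptprc alone. Both had an exact permutation p of 0.0286, before any adjustment over the 5 receptors or the choices of marker. Csf1r and Ptprc had log2 fold changes above 0 themselves (0.26 and 0.52 in edgeR), against -0.09 for C3ar1. The differences relative to these markers thus include those of the markers. C5ar1 turned to -0.18 relative to Csf1r and -0.46 relative to Ptprc, where neither passed (exact permutation p 0.429 and 0.114). Relative to Csf1r and to Ptprc, C5ar2 was at -0.45 and -0.73 (exact permutation p 0.457 and 0.0857), Vsig4 at -1.20 and -1.48 (0.0857 and 0.0571) and Itgax at 0.23 and -0.050 (0.543 and 0.886).

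Over the 8 tumors, 95 relations were computed, 45 between pairs of members and 50 between members and the mean level of 5 marker lists (macrophage, pan-leukocyte, epithelial, fibroblast, endothelial), each with an exact permutation test over 40320 orders. With unadjusted p below 0.05, 11 were found by Pearson's r and 9 by Spearman's rho, and 0 passed Benjamini-Hochberg adjustment by either. C5ar1 and the macrophage markers had r 0.896 (exact permutation p 0.00372, adjusted 0.177) and rho 0.81 (p 0.0218, adjusted 0.414), with r 0.792 without the 2 tumors farthest from the median. The WT tumors alone did not show this order, since WT 4 had the highest C5ar1 and the lowest macrophage markers of the WT tumors, and the C3-/- tumors spanned the range. C3ar1 and the same markers had r 0.819 (exact permutation p 0.0131, adjusted 0.177) and rho 0.714 (p 0.0576, adjusted 0.546), and r was 0.75 without 2 tumors. Values of that size were not limited to the macrophage list. With the fibroblast markers, C5ar1 had r 0.861 (exact permutation p 0.00742, adjusted 0.177) and rho 0.929 (p 0.00223, adjusted 0.106), with r 0.625 without 2 tumors. With the endothelial markers, C3ar1 had r 0.831 (exact permutation p 0.00853, adjusted 0.177) and rho 0.738 (p 0.0458, adjusted 0.484), with r 0.873 without 2 tumors. For this pair r was 0.0054 within the WT tumors alone and 0.992 within the C3-/- tumors alone.

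C3ar1 and C5ar2 had the highest rho of the member pairs, 0.929 (exact permutation p 0.00223, adjusted 0.106), with r 0.759 (p 0.031, adjusted 0.294) and r 0.76 without 2 tumors. C3ar1 and C5ar1 had r 0.814 with each other (exact permutation p 0.0175, adjusted 0.184) and rho 0.619 (p 0.115, adjusted 0.546). Without the 2 farthest tumors r was 0.202, so that the relation rested on those tumors. For Vsig4 and the macrophage markers r was 0.362 and rho 0.0714 (exact permutation p 0.378 and 0.882, adjusted 0.877 and 0.976), and r was -0.43 without 2 tumors. For Vsig4 and Itgax r was -0.71 and rho -0.76 (exact permutation p 0.0483 and 0.0368, adjusted 0.393 and 0.484), with r -0.45 without 2 tumors. All values are CPM of the same libraries, so that the points share their depth and their makeup.

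**Figure D3:**
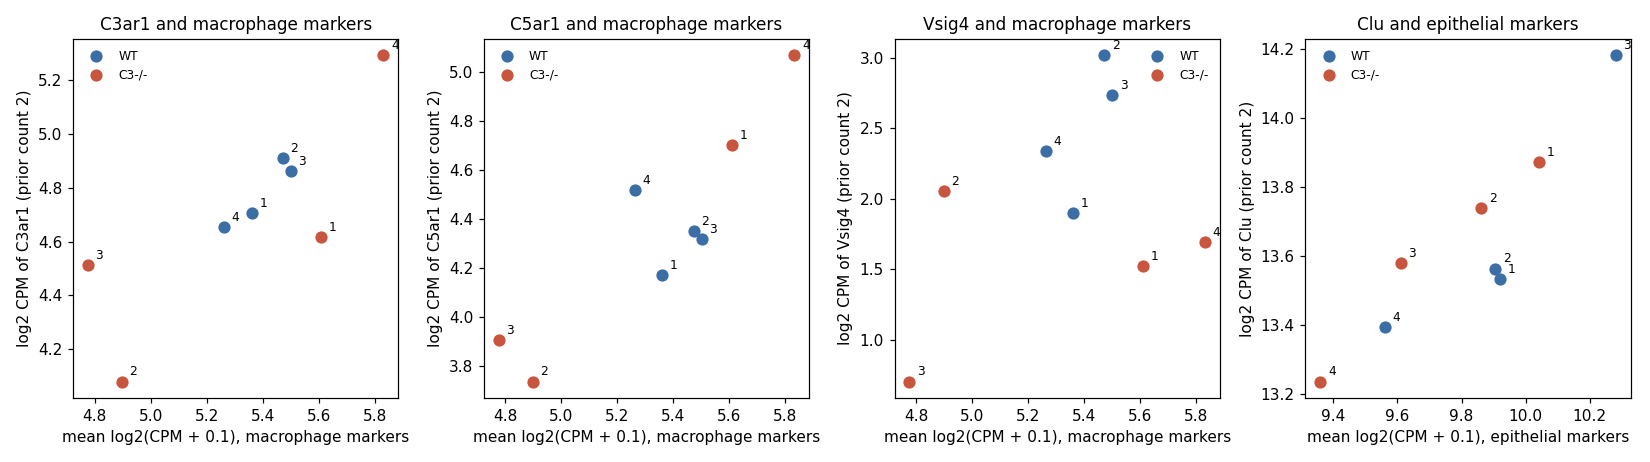
Log2 CPM (prior count 2) of C3ar1, C5ar1 and Vsig4 against the mean log2(CPM + 0.1) of 10 macrophage markers, and of Clu against that of 7 epithelial markers, 1 point per tumor numbered by replicate, WT blue and C3-/- red. The points of C3ar1, C5ar1 and Clu climb from left to right over the 8 tumors, and the Vsig4 points do not line up (r 0.362).

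The membrane regulators lie in part next to each other. Cr1l, or Crry, which in rodents restrains the C3-cleaving enzymes on nearly all cells, lies on chromosome 1 (chr1:194779690-194813894, minus strand), 5132 bases from Cd46 (chr1:194719134-194774557, minus strand). Cd46 is the membrane cofactor protein, which in mice is known mainly from the testis, and its interval overlaps 5 other annotated genes, 4 of them on the opposite strand. Cd55, the decay-accelerating factor, overlaps a long noncoding RNA gene on the opposite strand (chr1:130366764-130390481, minus strand). Cd59a encodes the inhibitor of the membrane attack complex (chr2:103926146-103945699, plus strand). Only the 3 longest transcripts of each gene were compared with those of its copy. Those of Cd55 and its copy Cd55b share an identical run of 198 bases, and those of Cd59a and Cd59b 252 bases. Both runs are longer than a read, so that the counts of Cd55 and Cd59a are uncertain to that extent. Cd59b itself had 4 to 27 counts per tumor.

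Cr1l varied least of the members. It was at 60.6, 51.6, 69.3 and 59.2 CPM in WT tumors and at 46.7, 58.1, 57.9 and 58.7 CPM in C3-/- tumors. C3-/- 1 was the lowest of all tumors, and the other C3-/- tumors lay among the WT tumors. Its log2 fold change was -0.12 (SE 0.13, 95% interval -0.41 to 0.17, edgeR adjusted p 0.999), with an exact permutation p of 0.314. The highest tumor was 1.49-fold above the lowest by FPKM, against 1.80-fold for Cd55 and 5.27-fold for Vsig4.

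Cd55 was at 11.3, 8.14, 9.87 and 13.8 CPM in WT tumors and at 7.67, 12.4, 9.20 and 13.7 CPM in C3-/- tumors, ranges that nearly coincided. Its log2 fold change was -0.01 (SE 0.24, 95% interval -0.54 to 0.52, edgeR adjusted p 0.999). Cd59a was at 2.36, 7.23, 8.66 and 3.91 CPM in WT tumors and at 4.87, 4.59, 3.03 and 3.50 CPM in C3-/- tumors. All C3-/- values of Cd59a lay inside the WT range, and WT 2 and WT 3 stood above every other tumor. Its log2 fold change was -0.46 (SE 0.39, 95% interval -1.32 to 0.40, edgeR adjusted p 0.999), or -0.16 without WT 3.

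Cd46 was the member with the lowest FPKM. It was at 2.18, 2.71, 1.21 and 2.81 CPM in WT tumors and 1.26, 2.46, 2.14 and 2.41 CPM in C3-/- tumors, from 16 to 66 counts. All C3-/- values lay inside the WT range, with a log2 fold change of -0.11 (SE 0.35, 95% interval -0.89 to 0.66, edgeR adjusted p 0.999).

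FPKM, which divides by gene length as well as by depth, allows the regulators to be set beside each other. Their summed FPKM was 11.3 ± 1.59 in WT and 9.92 ± 0.965 in C3-/- tumors (SD, n = 4 per genotype; exact permutation p 0.143). Cr1l made up 45.3 to 59.9% of this sum, with 51.4 ± 6.23% in WT and 53.4 ± 4.06% in C3-/- tumors (SD, n = 4 per genotype; exact permutation p 0.6). Cd55 made up 14.9 to 26.2%, Cd59a 13.4 to 36.3% and Cd46 1.16 to 3.33%. Cr1l held the largest share of the 4 in every tumor, and the order of Cd55 and Cd59a differed between tumors.

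**Figure D4:**
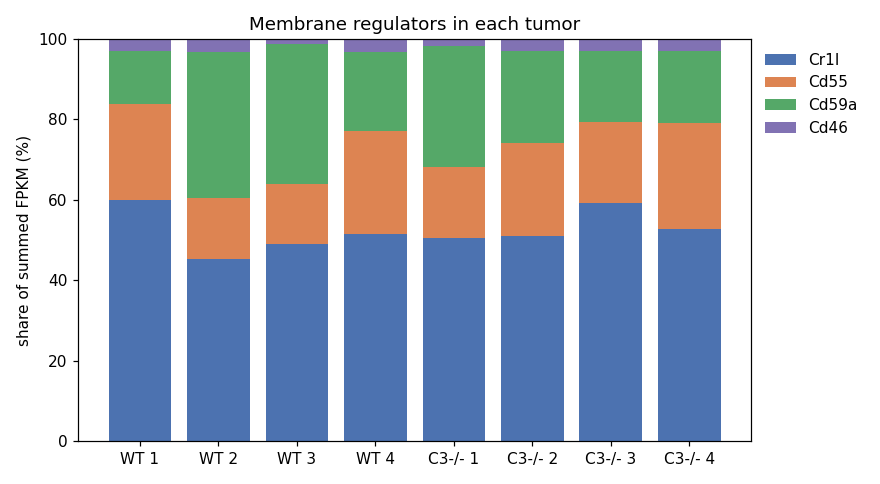
Share of Cr1l, Cd55, Cd59a and Cd46 (percent, vertical axis) in their summed FPKM in each tumor, stacked to 100. Cr1l is the largest block in each of the 8 tumors, between 45.3 and 59.9%, and Cd46 the smallest, at most 3.33%.

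Clu encodes clusterin, a secreted chaperone that keeps the terminal complement complex from inserting into membranes and that injured and cancerous epithelia are known to make (chr14:66205932-66218996, plus strand). It was at 11856, 12104, 18605 and 10751 CPM in WT tumors and at 14996, 13677, 12246 and 9639 CPM in C3-/- tumors. WT 3 was the highest and C3-/- 4 the lowest, and the other tumors of both genotypes were mixed. The log2 fold change was -0.08 (SE 0.23, 95% interval -0.58 to 0.43, edgeR adjusted p 0.999), with an exact permutation p of 0.886.

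Clu was one of the most abundant transcripts of these tumors. It took between 0.994% of all counts (95% Wilson interval 0.989 to 0.999%) in C3-/- 4 and 1.74% (1.73 to 1.74%) in WT 3, intervals that cover counting error only. It had the highest count of all genes in 7 of 8 tumors and the second highest in C3-/- 4. Its mean share of 1.29% stood above that of Rn18s-rs5 (0.851%) and of the mitochondrial gene mt-Co1 (0.842%). By FPKM it ranked between 1 and 4.

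Clu and the epithelial markers had the highest r of the relations computed, 0.914 (exact permutation p 0.00223, adjusted 0.177 over 95 relations), rho 0.786 (p 0.0279, adjusted 0.442) and r 0.719 without the 2 farthest tumors. With the genotype means taken out, r was 0.943. The 7 epithelial markers summed to 6597 to 10966 CPM in WT tumors and 5824 to 9685 CPM in C3-/- tumors. Other cells of the tumor varied as well, with 7 fibroblast markers at 7327 to 10913 and 4368 to 11221 CPM and 6 endothelial markers at 214 to 289 and 188 to 325 CPM in WT and C3-/- tumors. Epcam, the epithelial adhesion molecule, was at 204 ± 75.0 and 178 ± 67.0 CPM (SD, n = 4 each). Clu and Cd46 had r -0.82 and rho -0.67 (exact permutation p 0.0125 and 0.0831, adjusted 0.177 and 0.546), but r was -0.17 without 2 tumors.

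Per length, Clu stood far above the other members, with a mean FPKM of 3741 over the 8 tumors, 462-fold above the next. C5ar1 followed with 8.09, C3ar1 with 6.12 and Cr1l with 5.53 FPKM. Vsig4 (2.88), Cd59a (2.61), Cd55 (2.19) and Itgax (2.13) formed a middle group, and C5ar2 (0.506) and Cd46 (0.280) were lowest. Clu exceeded C5ar1, C5ar1 exceeded C3ar1, Itgax exceeded C5ar2 and C5ar2 exceeded Cd46 in all 8 tumors. Cr1l exceeded Vsig4 in 7 tumors and C3ar1 exceeded Cr1l in 6. Within the middle group the order changed from tumor to tumor: Vsig4 exceeded Cd59a in 5 of 8 tumors, Cd59a exceeded Cd55 in 3 and Cd55 exceeded Itgax in 3, and these differences in FPKM were smaller than the spread between tumors. By genotype means, Vsig4 was the highest of these 4 in WT tumors (3.86 FPKM) and the lowest in C3-/- tumors (1.90 FPKM).

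**Figure D5:**
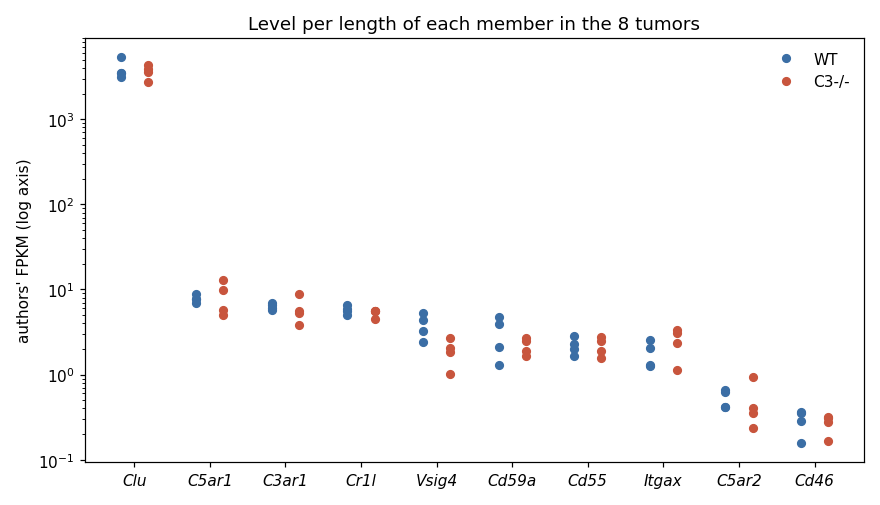
FPKM as deposited (log axis) of each member in 4 WT (blue) and 4 C3-/- (red) tumors, ordered by the mean over the 8 tumors. Clu lies between 2764 and 5354 FPKM, and the other members lie between 0.157 and 12.8 FPKM.

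By genotype, mean FPKM was 6.33 ± 0.529 in WT and 5.91 ± 2.16 in C3-/- tumors for C3ar1, 7.79 ± 0.737 and 8.40 ± 3.65 for C5ar1, and 0.528 ± 0.129 and 0.483 ± 0.312 for C5ar2 (SD, n = 4 each). The SD in C3-/- tumors was above that in WT tumors for each of these receptors, a difference that was not tested. For Vsig4 it was 3.86 ± 1.27 and 1.90 ± 0.690, and for Itgax 1.79 ± 0.609 and 2.48 ± 0.985. For Cd59a the WT tumors were the more spread, with 3.03 ± 1.59 against 2.18 ± 0.474.

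The genes whose log2 CPM ran most like a member's over the 8 tumors were taken from 12938 or 12939 genes with a median of at least 50 counts. For C5ar1 they were Prkcb (r 0.975), a protein kinase C, Creg1 (0.966) and Pon3 (0.956). For C3ar1 they were Dock2 (0.964), a guanine exchange factor of leukocytes, Shcbp1 (0.959) and Ntng2 (0.944). For C5ar2, r was lower, with Ncapg (0.912), Meaf6 (0.910) and Plcl1 (0.907).

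For Vsig4 the closest were Hgsnat (0.947), a lysosomal acetyltransferase, Spata6 (0.944) and Mphosph6 (0.916), and for Itgax Thap1 (0.921), Brip1os (0.909) and Hdac10 (0.906). For Cd59a they were Dusp10 (0.977), Gm4735 (0.966) and Cldn4 (0.955), a claudin of epithelia. For Cd55 they were Top2b (0.948), Mpc1 (0.940) and Abi2 (0.939), and for Cr1l Polr1f (0.969), Golph3 (0.962) and Dnajc25 (0.954). For Clu they were Cidea (0.968), Sdc1 (0.967), an epithelial syndecan, and Gm6548 (0.964), and 85 genes had r above 0.9. For Cd46 there were 368 such genes, led by Phactr2 (0.986), Rasal2 (0.985) and Amotl1 (0.982). With 8 tumors that share depth and makeup, high values of r among so many genes are a description of likeness alone.

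The rest of the complement system was taken from a list of 47 genes, of which 43 were in the table and 31 were tested. None passed the edgeR test, 12 log2 fold changes were above 0 and 19 below, and their median was -0.13. At an unadjusted p below 0.05, 0 were higher and 3 lower in C3-/- tumors, C3, C7 and Itgam. Cd55b, Mbl1, Mbl2 and Colec10 were not analysed here.

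Among the other receptors and surface proteins, Itgam, which encodes the CD11b subunit of complement receptor 3 and marks myeloid cells, was at 30.3, 28.5, 54.2 and 40.3 CPM in WT tumors and 31.2, 23.2, 17.5 and 31.2 CPM in C3-/- tumors. The groups overlapped, with WT 3 highest. Its log2 fold change was -0.57 (SE 0.25, edgeR unadjusted p 0.0435, adjusted p 0.971). The highest levels on that list were those of Calr, calreticulin, a chaperone that binds C1q at the cell surface (257 ± 52.1 FPKM in WT and 249.5 ± 24.6 in C3-/- tumors), and of C1qbp (33.8 ± 5.94 and 30.9 ± 5.40 FPKM).

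Among the soluble regulators, Cfi, the protease that cleaves C3b with its cofactors, was at 144 ± 36.3 FPKM in WT and 146 ± 28.2 in C3-/- tumors, and Serping1, the C1 inhibitor, at 59.7 ± 20.7 and 48.2 ± 13.1 FPKM. Of 7 tested, 4 were above 0 and 3 below. Among the components, C1qa (149 ± 36.1 and 157 ± 72.2 FPKM) and C1qb (129 ± 26.8 and 155 ± 74.4 FPKM), which encode chains of C1q and are made mostly by macrophages, were highest. C7, a part of the membrane attack complex, had 18, 146, 2 and 182 counts in WT tumors and 19, 0, 7 and 16 counts in C3-/- tumors. The groups overlapped, and the log2 fold change was -3.15 (SE 1.10, edgeR unadjusted p 0.0169, adjusted p 0.960). The high WT values of C7 were those of WT 2 and WT 4.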

How the data were processed

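Poly-A selected RNA of 8 tumors, 4 per genotype and 1 per mouse, was sequenced in paired ends. Per the methods, the authors aligned reads to mm39 with STAR and counted them per gene with HTSeq, whereas the submitters' processing notes name HISAT2 2.0.5 and DESeq2 1.20.0. The strand setting is not given in the sources used here. The authors deposited raw counts and FPKM, which here is a size-factor-normalized count divided by gene length. The authors' normalized counts, fold changes and p-values were not used.

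The deposited counts were tested with edgeR 4.0.16 in R 4.3.3 (TMM, filterByExpr with a minimum count of 10, quasi-likelihood without robust fitting, Benjamini-Hochberg adjustment over 16610 genes, threshold 0.05), with genotype as the only term. Exact two-sided permutation tests over tumors used log2(CPM + 0.1). For relations, CPM were put on the log2 scale with a prior count of 2. FPKM were compared between genes. Alternatives were DESeq2 1.42.0, its size factors in edgeR, limma-voom (limma 3.58.1), no filter, a stricter filter of 10 counts in all tumors, a robust fit, a replicate block, limma on log2(FPKM + 1) or log2(FPKM + 0.1), and each tumor left out. Scripts were tested on simulated data. Counts are of read pairs and not of molecules.

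Members and lists were chosen with earlier results of these data known, and the motifs were chosen afterwards. Named genes were the members, C3, other complement genes with an unadjusted p below 0.05, the 2 highest by FPKM per list, the 3 genes most like each member (median of at least 50 counts), and Ptprc, Adgre1, Csf1r, Epcam, Ctrb1 and Acta1 of the marker lists. Ctrb1, an acinar protease gene, was at 105 ± 47.8 CPM in WT and 202 ± 397 CPM in C3-/- tumors, and Acta1, skeletal muscle actin, at 517 ± 636 and 799 ± 639 CPM (SD, n = 4 each). Rn18s-rs5, mt-Co1, Flt3, Zbtb46, Upk3b, Lrrn4, Msln, Ahsg, Marco, Cd163, Mertk, Csf3r and Cd79a were named after their values were seen. GENCODE vM39 gave overlapping genes, and all 10 member identifiers were found in it. No library was a repeat of another: the smallest chi-square per degree of freedom over 28 pairs of tumors was 14.8.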

Additional observations from a re-analysis of the deposited data

Results flagged for a closer look

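Of 56 groups of 4 tumors examined, 6 held a tumor far from the other members of its group, where chance gives about 1 in 20 groups (2.8). Each is given as a value, and no cause was tested. The log2 CPM of Cr1l was 5.55 in C3-/- 1 and 5.86 to 5.88 in the other C3-/- tumors. The share of Cd46 in the summed FPKM of the membrane regulators was 1.86% in C3-/- 1 and 2.94 to 2.98% in the others. The ratio of C5ar1 to C5ar2 was 42.6 in C3-/- 1 and 13.7 to 14.2 in the others. C3-/- 1 was also the tumor with the highest acinar markers, at 2063 CPM. The log2 level of C5ar1 relative to the macrophage markers was -0.75 in WT 4 and -1.19 to -1.12 in the other WT tumors, and the ratio of C5ar1 to C3ar1 was 1.52 in WT 4 and 1.14 to 1.15 in the others. The log2 level of Vsig4 relative to the macrophage markers was -2.85 in C3-/- 2 and -4.15 to -4.09 in the other C3-/- tumors.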

How the results depend on the processing

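The count of members called was 0 in edgeR and in 18 alternatives, 2 of which (limma on log2(FPKM + 1) and on log2(FPKM + 0.1), with the FPKM filter) did not test Cd46. DESeq2 called 16 of all genes and 1 other complement gene, C3. With each tumor left out in turn, edgeR called between 0 and 4 of all genes (4 without C3-/- 1), 0 members and 0 other complement genes. The log2 fold changes of Vsig4, Itgax, Cd59a and Cr1l kept their direction in those alternatives, and Vsig4 ranged from -1.22 to -0.74. With 1 tumor left out, Itgax ranged from 0.30 (without C3-/- 3) to 0.72, Cd59a from -0.72 (without WT 1) to -0.16 (without WT 3; -0.31 without WT 2), and Cr1l from -0.19 (without WT 2) to -0.046 (without WT 3; -0.048 without C3-/- 1). The log2 fold changes of the other 6 members changed sign only where a tumor was left out (13 values over the 6 members), between -0.37 and 0.065 for C3ar1 (above 0 without C3-/- 2), -0.17 and 0.29 for C5ar1, -0.66 and 0.12 for C5ar2, -0.15 and 0.14 for Cd55, -0.31 and 0.063 for Cd46, and -0.17 and 0.13 for Clu (above 0 without WT 3 or C3-/- 4). None of these values passed the test.

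Relative to the macrophage markers, leaving out tumors gave -0.17 to 0.076 for C3ar1, -0.32 to 0.23 for C5ar2, 0.080 (without C3-/- 4) to 0.24 (without WT 4) for C5ar1, 0.20 (without C3-/- 3) to 0.75 for Itgax and -1.20 to -0.74 for Vsig4. C5ar1 was -0.18 relative to Csf1r and -0.46 relative to Ptprc, and Itgax was -0.050 relative to Ptprc. The causes of these changes were not tested.

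With the replicate block, 0 members and 0 of all genes were called, and the log2 fold change of Vsig4 was -1.01 (edgeR adjusted p 0.998). Same-numbered tumors had residual correlations of -0.03, 0.49, -0.36 and 0.59. Tumors of different numbers were not compared in this way, so these values cannot settle whether the numbers pair the tumors.

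The widest intervals were those of C5ar2 and Cd59a, and 4 tumors per genotype cannot reach an exact permutation p under 0.0286. Counts of Cd55 and Cd59a depend on how reads shared with their copies were counted. The overlap of Cd46 and Cd55 with genes on the opposite strand matters if strand was not used. C5ar2 and Cd46 each also overlap 1 annotated gene on the same strand, which can matter under either strand setting.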
